A study of Mus musculus with 6 samples.

Results

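The 9 genes described here encode proteins of the tight junction, the belt that closes the space between neighbouring epithelial cells: 6 claudins (Cldn1, Cldn3, Cldn4, Cldn7, Cldn8 and Cldn12), occludin (Ocln), the scaffold ZO-1 (Tjp1) and the plaque protein cingulin (Cgn). They were chosen by gene symbol, and all 9 were among the 18193 genes that an Affymetrix 3' expression array measured with at least 1 probe set of a single gene symbol. A gene was read from its brightest probe set, the group of probes on the array that targets it. The samples were cells from digested skin tumours, 1 array per biological replicate. Of the 6 arrays, 3 were of mice deficient in E-FABP (EKO), the epidermal fatty acid carrier encoded by Fabp5, and 3 of wild-type (WT) mice. Both groups had received DMBA, a carcinogen, and TPA, a tumour promoter, for 5 months, so every tumour in the comparison was chemically induced. The labels state neither the strain and age of the mice nor how the gene was disrupted. The labels call the cells keratinocytes.

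Claudins are membrane proteins that pair across the gap between cells and set how tightly, and for which ions, the seal closes. Occludin spans the membrane beside them, and ZO-1 and cingulin tie the strands to actin from inside the cell. In the epidermis functional tight junctions lie in the granular layer, beneath the cornified layer. Mice without claudin-1 lose water through the skin and die soon after birth.

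Setting EKO against WT tumours asks whether transcripts of this seal differ in tumours that formed without E-FABP. Cldn8 had a mean 2.84 times as high in EKO as in WT tumours. By their brightest probe sets the other 8 genes had means that differed by 0.21 or less in size on the log2 scale. A dimmer probe set of Cldn1 had a difference of -0.71. None of the 9 genes passed the test. The test was limma over all 18193 genes with Benjamini-Hochberg adjustment and a threshold of 0.05. It called 0.0055% of all genes, namely Fabp5 alone. At an unadjusted p under 0.05 it picked out 1 of the 9, Cldn8, against 7.13% of all genes. The median difference of the 9 genes, EKO minus WT, was 0.14, against 0.00014 over all genes, with 7 higher and 2 lower means in EKO tumours. It was 0.015 without WT replicate 1, 0.063 without WT replicate 2 and 0.074 without EKO replicate 1. The groups did not overlap for 1 of the 9 genes, Tjp1, which was higher in EKO. Over all genes the groups were apart for 12%, of which 5.78% of all genes were higher and 6.19% lower in EKO, so 1 of 9 is close to the background.

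The labels were checked against Fabp5 first. Its brighter probe set read 8.20, 8.30 and 7.98 in EKO replicates 1, 2 and 3, against 14.82, 14.94 and 14.80 in WT replicates 1, 2 and 3 (difference -6.69, limma adjusted p = 1.04e-06). The 6 arrays had medians between 5.40 and 5.43 and lower quartiles between 3.90 and 3.96 on the log2 scale, and the correlation of any 2 arrays over all probe sets was at least 0.988. Genes that define keratinocytes were bright in all 6 arrays. Krt14, a keratin of basal cells, lay between 14.70 and 14.74 in EKO and between 14.66 and 14.80 in WT tumours, and Krt10, a keratin of suprabasal cells, between 14.19 and 14.51 in EKO and between 14.17 and 14.35 in WT tumours. Dcn, a marker of fibroblasts, lay between 11.40 and 11.99 in EKO and between 11.92 and 13.05 in WT tumours (difference -0.90, limma adjusted p = 0.625). The RNA was therefore probably not of keratinocytes alone, though the values carry no detection calls. A probe set's signal does not measure transcript level between genes, so the values below are compared between arrays and not between genes.

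**Figure D1:**
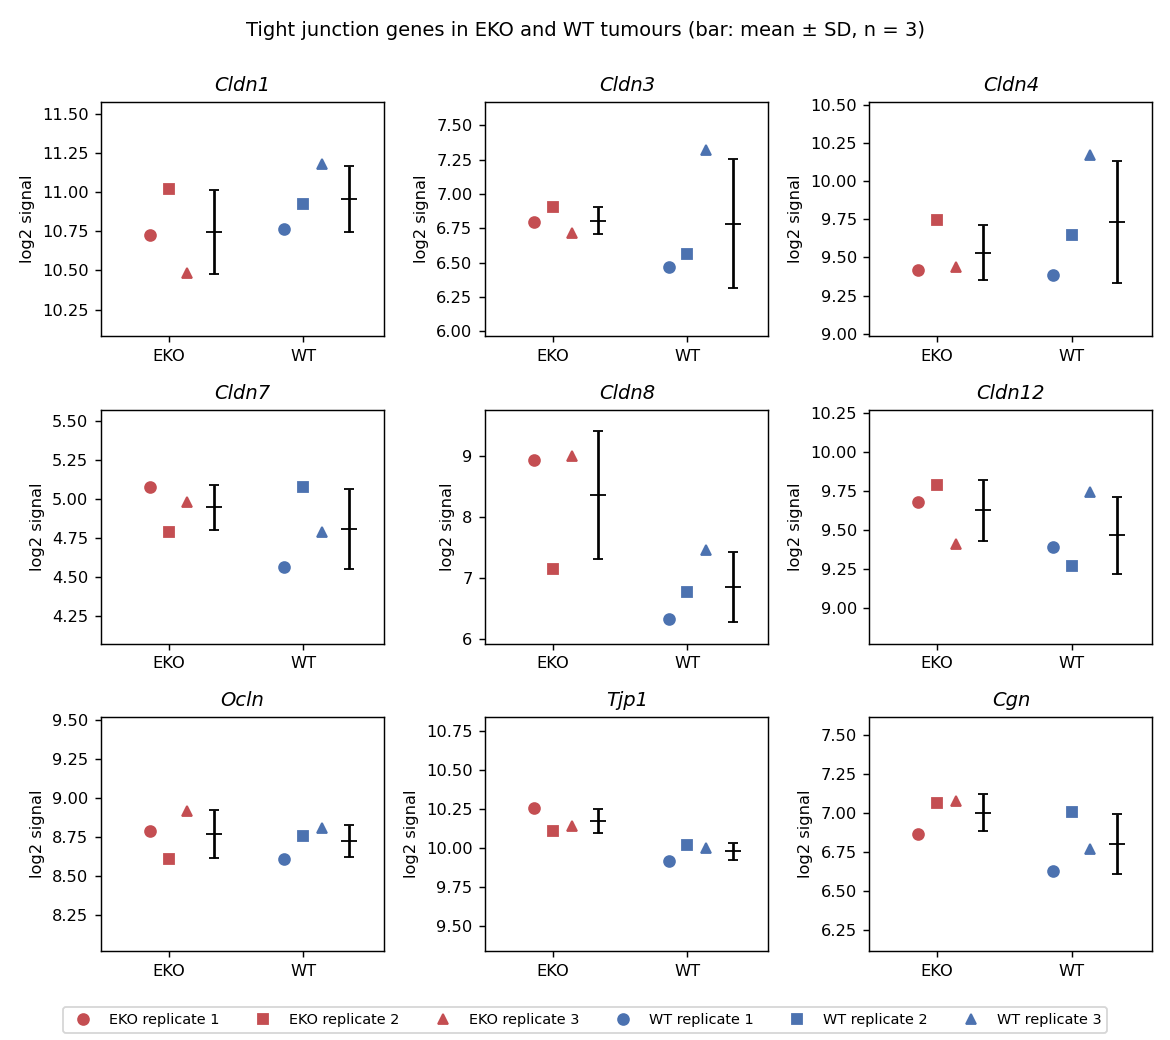
Log2 signal of the 9 tight junction genes in each array, with EKO tumours on the left and WT tumours on the right of each panel; symbols mark the replicate number and the black bars give the mean and SD of the group (n = 3 each), and the vertical scales differ between panels. Cldn8 is high in EKO replicates 1 and 3 (8.93 and 8.99) and lower in EKO replicate 2 (7.14), and only for Tjp1 do the 2 groups not overlap.

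Cldn8 was the gene of the 9 that differed most between the groups and also within them. Claudin-8 tightens epithelia against cations in the distal kidney tubule and colon, and in cultured mouse collecting duct cells it brings claudin-4 to the junction. Cldn8 read 8.93, 7.14 and 8.99 in EKO replicates 1, 2 and 3, against 6.32, 6.77 and 7.46 in WT replicates 1, 2 and 3. EKO replicates 1 and 3 lay above every WT value, while EKO replicate 2 lay below WT replicate 3, so the groups overlapped. The means were 8.35 ± 1.05 in EKO and 6.85 ± 0.58 in WT tumours (SD, n = 3 each). The difference of 1.50 (SE 0.525) had a 95% interval from 0.27 to 2.74, a fold of 1.20 to 6.69. It ranked 48 of 18193 genes by size, and 0.835% of all genes had a difference of at least 1 in size. It did not pass over all genes (limma adjusted p = 0.644).

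Leaving out single arrays moved the size of this difference and not its direction. Without EKO replicate 2 the difference of Cldn8 was 2.11 (SE 0.315), still short of the threshold (limma adjusted p = 0.106, range over the alternatives 0.106 to 0.998), where 0.231% of all genes passed. Over the 6 fits that left out 1 array it ran from 1.19 to 2.11, with Cldn8 higher in EKO in each. Only 1 probe set with a single symbol measured Cldn8, so no other probe set of the gene could be set beside it. Its neighbour on chromosome 16 in the RefSeq gene table is Cldn17, which had no probe set of a single symbol.

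The genes with profiles nearest to that of Cldn8 were picked by likeness over these same 6 arrays, so their shared pattern is not a result. Likeness was the root mean square distance between log2 profiles, each with its own mean over the 6 arrays subtracted. Dsc2, a desmosomal cadherin, was nearest, at a distance of 0.309, where the profile of Cldn8 itself had a root mean square of 1.02. Tgm3, a transglutaminase that cross-links the cornified envelope, followed at 0.340, and Upp1, a uridine phosphorylase, at 0.343. Dsc2 read 10.97, 9.76 and 11.42 in EKO replicates 1, 2 and 3, against 8.78, 8.88 and 9.17 in the WT replicates. Tgm3 read 11.60, 9.57 and 12.07 in the EKO replicates, against 8.96, 9.13 and 9.43 in the WT replicates. For both genes EKO replicate 2 was the lowest EKO tumour but stayed above all WT tumours, unlike for Cldn8. Neither passed with all arrays (limma adjusted p = 0.549 for Dsc2 and 0.625 for Tgm3). Both passed without EKO replicate 2, Dsc2 with a difference of 2.25 (limma adjusted p = 0.0143) and Tgm3 with one of 2.66 (limma adjusted p = 0.0107). Both were picked for a profile like that of Cldn8, which is low in that array among the EKO tumours. Passing without it is therefore no separate evidence. With another array left out the limma adjusted p of each reached 0.998.

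**Figure D2:**
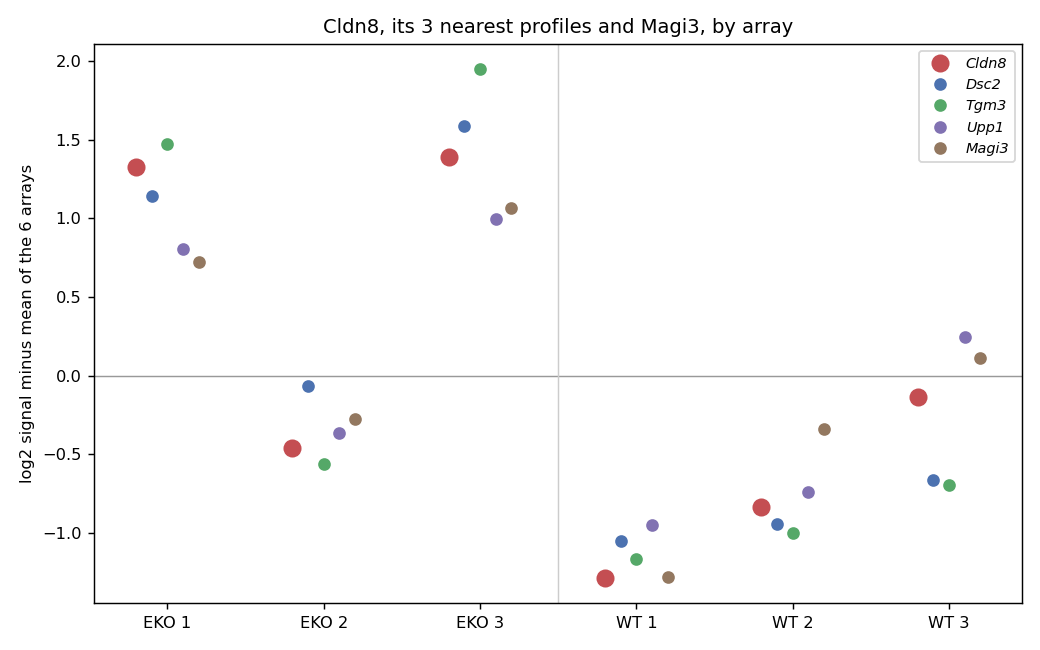
Log2 signal of Cldn8, of the 3 genes with the nearest profiles and of the junction scaffold gene Magi3, each minus its own mean over the 6 arrays, for EKO replicates on the left and WT replicates on the right. All 5 genes are high in EKO replicates 1 and 3 and lower in EKO replicate 2, and Magi3 and Upp1 lie above 0 in WT replicate 3.

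Cldn1, the main barrier claudin of the epidermis, had a slightly lower mean in EKO tumours by its brightest probe set. Its values were 10.73, 11.02 and 10.49 in EKO replicates 1, 2 and 3, against 10.76, 10.93 and 11.18 in WT replicates 1, 2 and 3. EKO replicate 2 lay within the WT range and the other EKO tumours lay below it. The difference was -0.21 (SE 0.166, 95% interval -0.60 to 0.18, limma adjusted p = 0.823).

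Cldn1 has 4 probe sets with a single symbol, and they differed in the size of the difference. The second brightest, 1450014_at, read 7.17, 7.61 and 7.39 in EKO replicates 1, 2 and 3, against 7.88, 8.15 and 8.29 in WT replicates 1, 2 and 3. Every EKO value lay below every WT value there, as for 11.8% of all probe sets in 1 direction or the other. The difference was -0.71 (SE 0.149, 95% interval -1.06 to -0.37), a fold of 0.610, and it did not pass over all probe sets, of which 0.00444% did (limma adjusted p = 0.577). The remaining probe sets were dim. 1438850_at lay below the lower quartile of its array in all 6 arrays, and its difference was -0.16. 1438851_x_at, whose suffix marks probes shared with other sequences, had one of -0.19. All 4 probe sets thus had a lower mean in EKO tumours, but overlapping groups for 3 of them. The mean over the 4 gave a difference of -0.32 with no overlap between the groups (limma adjusted p = 0.665).

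**Figure D3:**
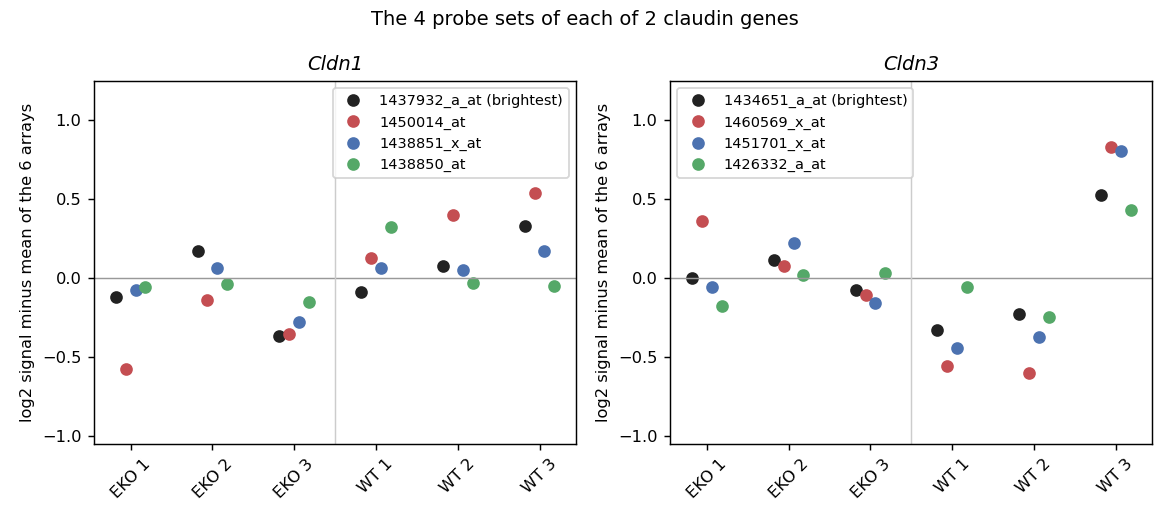
Log2 signal of each probe set of Cldn1 (left) and Cldn3 (right) minus its own mean over the 6 arrays, with EKO replicates on the left and WT replicates on the right of each panel. For Cldn1 the probe set 1450014_at alone separates the groups, with a difference of -0.71, and for Cldn3 all 4 probe sets are highest in WT replicate 3.

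Cldn3 and Cldn4 encode barrier claudins that also serve as receptors of a clostridial enterotoxin, and they lie next to each other on chromosome 5 in the RefSeq gene table. Both were highest in WT replicate 3. Cldn4 read 9.42, 9.74 and 9.43 in EKO replicates 1, 2 and 3, against 9.39, 9.65 and 10.17 in WT replicates 1, 2 and 3. The EKO values lay inside the WT range, and the difference was -0.20 (SE 0.204, 95% interval -0.68 to 0.28, limma adjusted p = 0.856). Without WT replicate 3 it was 0.015.

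Cldn3 showed the same tumour apart more clearly. It read 6.79, 6.91 and 6.72 in EKO replicates 1, 2 and 3, against 6.47, 6.57 and 7.32 in WT replicates 1, 2 and 3. The EKO tumours were close together, with an SD of 0.095 against 0.47 in WT tumours, and they lay between WT replicate 3 and the other WT tumours. The difference was 0.023 (SE 0.219, 95% interval -0.49 to 0.54, limma adjusted p = 0.991). Without WT replicate 3 it was 0.29 and the groups did not overlap (limma adjusted p = 0.462, range over the alternatives 0.462 to 0.998). With fewer arrays this is easier to reach, and the share of all genes apart in that setting was not computed. Without WT replicate 1 it was -0.14. The other 3 probe sets of Cldn3 had differences of 0.22, 0.0084 and -0.085 and were highest in WT replicate 3 as well. The profiles nearest to Cldn3 were those of Wnt5b, a Wnt ligand, at a distance of 0.0436, Txndc5, a protein disulphide isomerase, at 0.0711 and Pithd1 at 0.0715, where the profile of Cldn3 itself had a root mean square of 0.275. Wnt5b, picked by this likeness, read 5.06, 5.10 and 4.91 in the EKO replicates, against 4.70, 4.75 and 5.45 in the WT replicates, with WT replicate 3 highest.

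Promoter sequences are shown for the claudin gene with a separating probe set (Cldn1), for the neighbours Cldn3 and Cldn4 and for the scaffold gene whose groups did not overlap (Tjp1). Each is the 250 bases before the annotated start, 5′ to 3′ on the gene's strand, from RefSeq on GRCm38.p6, and capitals mark matches to the motifs searched.
Cldn1 (chr16:26371840-26372089, minus strand): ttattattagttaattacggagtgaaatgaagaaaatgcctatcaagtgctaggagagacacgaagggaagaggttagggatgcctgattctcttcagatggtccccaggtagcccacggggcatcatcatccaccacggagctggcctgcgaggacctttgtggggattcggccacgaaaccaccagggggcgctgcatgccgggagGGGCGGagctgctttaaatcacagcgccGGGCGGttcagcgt
Cldn3 (chr5:134985964-134986213, plus strand): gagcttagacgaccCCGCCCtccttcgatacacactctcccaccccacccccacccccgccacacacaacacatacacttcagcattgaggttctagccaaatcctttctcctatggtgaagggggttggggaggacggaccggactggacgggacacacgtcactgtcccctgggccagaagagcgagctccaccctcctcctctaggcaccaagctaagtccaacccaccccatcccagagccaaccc
Cldn4 (chr5:134946935-134947184, minus strand): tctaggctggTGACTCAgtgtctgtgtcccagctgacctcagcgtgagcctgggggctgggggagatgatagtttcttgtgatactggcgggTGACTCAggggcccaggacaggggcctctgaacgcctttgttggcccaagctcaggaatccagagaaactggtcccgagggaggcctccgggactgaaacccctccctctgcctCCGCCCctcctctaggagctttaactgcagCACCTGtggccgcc
Tjp1 (chr7:65371245-65371494, minus strand): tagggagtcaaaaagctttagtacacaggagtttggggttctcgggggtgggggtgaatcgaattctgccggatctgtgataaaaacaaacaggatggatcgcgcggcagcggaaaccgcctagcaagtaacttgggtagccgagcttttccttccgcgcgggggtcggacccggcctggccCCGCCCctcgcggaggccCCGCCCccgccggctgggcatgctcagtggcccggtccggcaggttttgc

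The promoter table held 12 such windows for 8 of the 9 genes, all but Cldn8, and windows of 1 gene can overlap. Letters were searched on both strands, and within a window no match overlapped another. The GC box GGGCGG stood in 10 of the 12 windows, against 32.7% of all 32851 windows of the table. Overlapping windows of Cldn12 held the same GC box, which was counted in each. The GC content of the 12 ran from 42.0% to 70.4%, against a median of 52.4% over all windows. The Cldn4 promoter held the AP-1 motif TGAGTCA 2 times, starting 240 and 158 bases before the start, and 4.46% of all windows held it. AP-1 is the transcription factor family that phorbol esters such as TPA activate. The E-box CAGGTG, which the repressor Snail binds, stood in 1 window each of Cldn4, Cldn7 and Ocln, 3 of 12, against 17.2% of all windows. The Grainyhead core ACCGGT, the Sox core ATTGTT and the TATA box TATAAA stood in 0 of the 12, against 1.86%, 9.42% and 12.4% of all windows. Of the 8 genes with a window, Cldn4 alone held the AP-1 letters. A match describes these letters and is not a measured binding site.

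Cldn7 and Cldn12 differed little between the groups. Claudin-7 lies along the lateral membrane as well as in the junction and binds EpCAM. Cldn7 read 5.08, 4.79 and 4.98 in EKO replicates 1, 2 and 3, against 4.57, 5.08 and 4.79 in WT replicates 1, 2 and 3. All 6 values lay below the median of their arrays, and 2 pairs of arrays held exactly equal values, and 0.104% of genes had at least 2 such pairs. Its difference was 0.14 (SE 0.147, 95% interval -0.21 to 0.48, limma adjusted p = 0.867).

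Claudin-12 is an atypical claudin that lacks the tail by which others bind PDZ domains. Cldn12 read 9.68, 9.79 and 9.41 in EKO replicates 1, 2 and 3, against 9.39, 9.27 and 9.74 in WT replicates 1, 2 and 3. EKO replicates 1 and 3 and WT replicate 3 lay within the other group's range, so the groups overlapped. The difference was 0.16 (SE 0.155, 95% interval -0.21 to 0.53, limma adjusted p = 0.855). Its dimmer probe set gave a difference of 0.12.

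Ocln was the steadiest of the membrane proteins. It read 8.79, 8.61 and 8.92 in EKO replicates 1, 2 and 3, against 8.61, 8.76 and 8.81 in WT replicates 1, 2 and 3. The ranges lay almost on top of each other, and the difference was 0.046 (SE 0.109, limma adjusted p = 0.944). Its 95% interval as a fold ran from 0.864 to 1.23. The dimmer probe set gave a difference of 0.054.

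Tjp1 was the gene of the 9 whose groups did not overlap. ZO-1 binds claudin tails through its PDZ domains and gathers them into strands. Tjp1 read 10.26, 10.11 and 10.14 in EKO replicates 1, 2 and 3, against 9.92, 10.02 and 10.00 in WT replicates 1, 2 and 3. The lowest EKO value lay above the highest WT value, by a small margin. The means were 10.17 ± 0.077 in EKO and 9.98 ± 0.053 in WT tumours (SD, n = 3 each), a difference of 0.19 (SE 0.0842) with a 95% interval from -0.0067 to 0.39, and it did not pass (limma adjusted p = 0.704). As a fold the interval ran from 0.995 to 1.31.

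Cgn had a higher mean in EKO tumours by its brighter probe set. Cingulin binds ZO-1 and myosin at the cytoplasmic face of the junction. Cgn read 6.87, 7.07 and 7.08 in EKO replicates 1, 2 and 3, against 6.63, 7.01 and 6.77 in WT replicates 1, 2 and 3. WT replicate 2 lay above EKO replicate 1, so the groups overlapped, and the difference was 0.20 (SE 0.123, limma adjusted p = 0.774). Its dimmer probe set went the other way, with a difference of -0.065, and the mean of both probe sets gave 0.068.

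**Figure D4:**
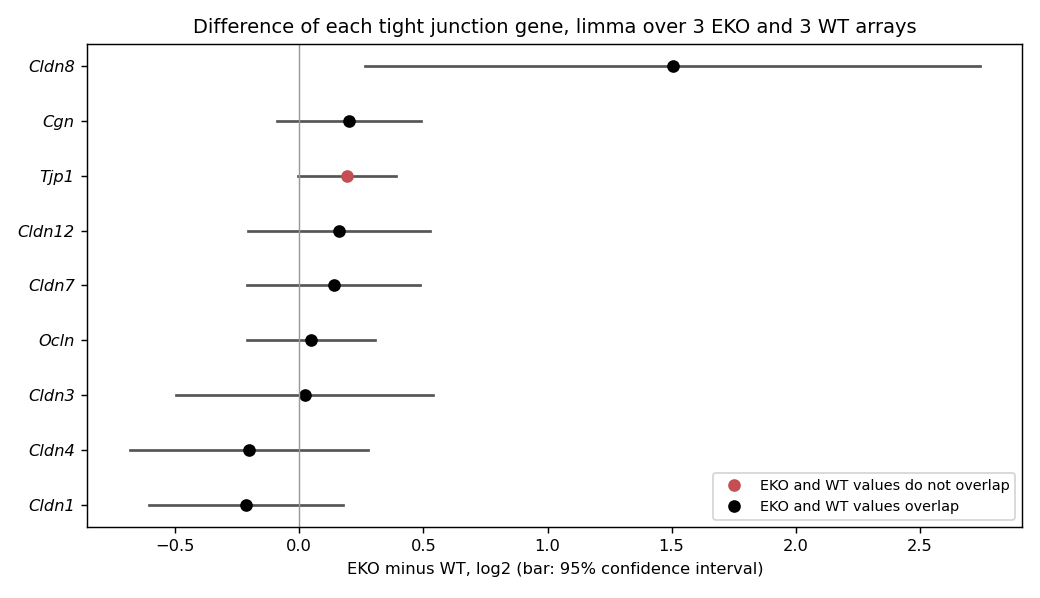
Difference EKO minus WT on the log2 scale for each of the 9 genes, with points for the estimate and bars for the 95% confidence interval of limma over 3 EKO and 3 WT arrays; the red point marks the gene whose groups do not overlap. The interval of Cldn8 runs from 0.27 to 2.74, and those of the other 8 genes include 0.

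WT replicate 1 was the lowest WT array for 8 of the 9 genes, against 27.2% of all genes, and WT replicate 3 was the highest for 6 of the 9, against 31.8%. Averaged over the 9 genes, and set against the mean of the 6 arrays, the log2 level was 0.17, 0.016 and 0.12 in EKO replicates 1, 2 and 3, against -0.33, -0.11 and 0.13 in WT replicates 1, 2 and 3. On this average WT replicate 3 lay among the EKO tumours. Cldn8 weighs most in it, with an SD of 1.12 over the 6 arrays, against 0.30 for Cldn3, the next most variable. No average without Cldn8 was taken, and the place of WT replicate 3 did not hold for each of the other genes. It was the highest of the 6 arrays for Cldn1, Cldn3 and Cldn4. For Cldn12 and Ocln it lay within the EKO range, and for Cldn7 it equalled the lowest EKO value. For Tjp1 and Cgn it lay below every EKO tumour.

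Markers of other cells in the digest varied over the same WT tumours. The 5 skeletal muscle markers averaged 0.22, -0.92 and -1.11 in EKO replicates 1, 2 and 3, against 2.45, -1.24 and 0.59 in WT replicates 1, 2 and 3, on the same scale. The 6 hair follicle markers averaged 0.78, 0.61 and -0.21 in the EKO replicates, against -1.97, -0.38 and 1.17 in the WT replicates. WT replicate 1 was thus highest in muscle and lowest in hair follicle markers, and WT replicate 3 was highest in hair follicle markers. Krt18, a keratin of simple epithelia, read 6.68, 6.05 and 6.33 in the EKO replicates, against 4.59, 4.40 and 6.23 in the WT replicates (difference 1.28, limma adjusted p = 0.653). The 5 measured markers of simple epithelium, Krt18 among them, averaged between 0.13 and 0.23 in EKO and between -0.42 and 0.20 in WT tumours. Every measured gene of these 3 lists exceeded the lower quartile in at least 1 array. Their part in the levels of the tight junction genes was not tested. In such bulk RNA, fewer cells of a type and less RNA per cell cannot be told apart. Of 13 marker lists with 59 measured genes, 0 genes passed over all genes in the limma fit (smallest adjusted p = 0.623). At an unadjusted p under 0.05 there were 5 of the 59, against 7.13% of all genes. The median differences of those lists ran from -1.23 for skeletal muscle to 0.77 for the hair follicle.

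Further genes of the junction and its control were taken from lists in 7 groups, of which 68 of 71 genes were measured. By limma 0 of the 68 passed over all genes (smallest adjusted p = 0.621), and at an unadjusted p under 0.05, 3 were higher and 5 lower in EKO tumours, against 3.44% and 3.7% of all genes. Their median difference was 0.038.

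Of 14 other claudins measured, 8 had higher and 6 lower means, with a median of 0.046. Cldn5, the claudin of blood vessel endothelium, had the smallest p. It read 7.35, 7.43 and 7.24 in EKO replicates 1, 2 and 3, against 8.40, 7.93 and 7.71 in WT replicates 1, 2 and 3 (difference -0.68, SE 0.174, limma adjusted p = 0.621). All EKO values lay below all WT values. Among 5 endothelial markers, 2 had higher and 3 lower means, with Kdr, a receptor of VEGF, at 0.42 and Tek, the angiopoietin receptor, at -0.35. The differences of the 5 ran from -0.52 to 0.42, with a median of -0.0059. The list averaged between -0.21 and 0.11 in EKO and between -0.26 and 0.35 in WT tumours, and its part in the value of Cldn5 was not tested. Cldn14 was next by p, with a difference of 0.15.

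Of 10 other membrane proteins of the junction, 4 had higher and 6 lower means, with a median of -0.052. Cxadr, the coxsackievirus and adenovirus receptor, read 10.00, 10.69 and 10.08 in EKO replicates 1, 2 and 3, against 10.89, 10.96 and 10.73 in WT replicates 1, 2 and 3. The groups did not overlap, with EKO replicate 2 close below WT replicate 3 (difference -0.60, SE 0.186, limma adjusted p = 0.625). Jam2, a junctional adhesion molecule found mainly on endothelium, had a difference of -0.30 (limma adjusted p = 0.691).

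The 18 measured scaffold and polarity genes had a median of 0.035, with 10 higher and 8 lower means. Magi3, a PDZ scaffold of the junction, read 8.06, 7.07 and 8.40 in EKO replicates 1, 2 and 3, against 6.06, 7.00 and 7.45 in WT replicates 1, 2 and 3. EKO replicate 2 lay inside the WT range, as for Cldn8 (difference 1.01, SE 0.437, limma adjusted p = 0.704). Pals1, a partner of the Crumbs polarity complex, had all 3 EKO values below all 3 WT values, with means of 7.88 ± 0.040 in EKO and 8.14 ± 0.10 in WT tumours (SD, n = 3 each; difference -0.26, limma adjusted p = 0.630). The 2 scaffold genes with the smallest p therefore went opposite ways.

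Transcription factors and proteases that act on epithelial junctions had differences of 0.51 or less in size. Ovol2, a repressor of mesenchymal genes, had means of 5.67 ± 0.14 in EKO and 5.35 ± 0.034 in WT tumours (SD, n = 3 each; difference 0.32, limma adjusted p = 0.625), and Ehf, an epithelial ETS factor, had a difference of -0.32. The 8 factors of epithelial identity, with the Grainyhead genes among them, had a median of 0.038. Of the 5 repressors of epithelial genes, Zeb2 had a difference of -0.51 (limma adjusted p = 0.621) and Twist1 one of -0.22, and the median was -0.21. The 4 proteases and inhibitors had a median of 0.074, with St14, which encodes matriptase, at 0.27 and Spint1, its inhibitor, at 0.11. In the 9 adherens junction genes the median was 0.087. There Cdh3, which encodes P-cadherin, read 7.81, 7.93 and 8.03 in EKO replicates 1, 2 and 3, against 7.46, 7.73 and 7.50 in WT replicates 1, 2 and 3 (difference 0.36, limma adjusted p = 0.621), and Jup, which encodes plakoglobin, had a difference of 0.26 (limma adjusted p = 0.693).

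**Figure D5:**
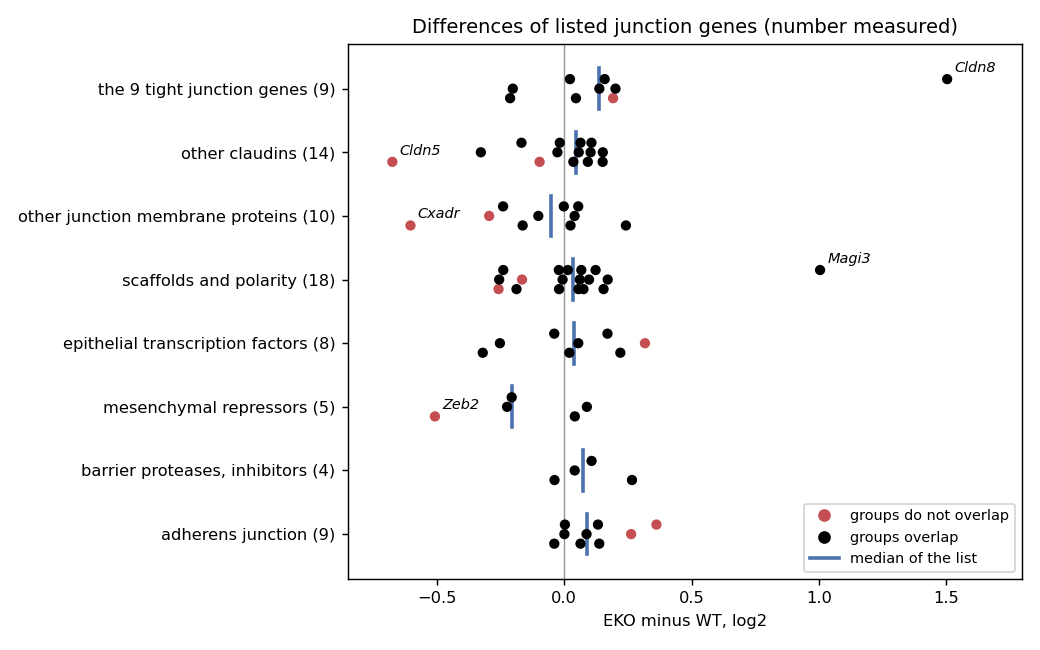
Difference EKO minus WT on the log2 scale for each measured gene of the 9 tight junction genes and of 7 further lists, 1 point per gene, with red points where the groups do not overlap and a blue line at the median of each list. Most points lie close to 0; Cldn8 at 1.50 and Magi3 at 1.01 lie farthest to the right, and Cldn5 at -0.68 and Cxadr at -0.60 farthest to the left.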

How the data were processed

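Cells of digested skin tumours were profiled on 6 arrays, 3 EKO and 3 WT, grouped by their titles, which describe biological replicates. The deposited values are log2 signals from RMA, and the submitters' processing notes also name Partek 6.6. RMA corrects background, equalises quantiles and summarises probe sets, which narrows differences near the floor. The values were used as deposited. They carry no detection calls, so no filter was set. Precision is limited by 3 arrays per group, and no scan dates were at hand to test as batches.

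Of 45101 probe sets, 64 controls were left out and 34945 had 1 gene symbol in the platform annotation, 932 several and 9160 none here. Through Entrez identifiers 0 symbols changed. Each of 18193 genes was read from its probe set with the highest mean. The fit of EKO against WT used limma 3.58.1 under R 4.3.3 (lmFit, eBayes, two-sided, Benjamini-Hochberg over all genes, threshold 0.05). It was also run on 12 simulated data sets with 200 changed genes, built from each gene's mean and spread in these data. There it called 77.8% of the log2 changes of 1 in size. The simulated noise was independent between genes, and 200 genes were changed, whereas in the real data Fabp5 alone passed. The share therefore does not say how many such changes the real comparison would call. Probe sets of a gene were also fitted among all probe sets.

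The 9 genes and all lists were chosen with earlier results of these data known. Named genes were the 9, Fabp5, up to 2 genes per list by smallest p and the 3 nearest profiles of the 2 most variable of the 9. Keratins used to check the cell type were chosen after their values were seen. Alternatives were a replicate block, the upper 50% of means, repeated quantile normalization, median centring, array weights, robust variances with an intensity trend, a mean over probe sets, all probe sets, each array left out and a threshold of 0.1.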

Additional observations from a re-analysis of the deposited data

How the results depend on the processing

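None of the 9 genes and none of the 68 listed junction genes passed under any alternative run. The replicate numbers did not pair the arrays: same-numbered EKO and WT arrays deviated from their group means with r of -0.074, -0.089 and -0.34 across genes. With the replicate number as a block 1 gene passed, the same count as without it, and 0 of the 9. The count of genes past the threshold over all genes was 2 with all probe sets tested, both of Fabp5, and ran from 1 to 42 with 1 array left out, 42 without EKO replicate 2 and 2 without WT replicate 2. The number of the 9 genes with no overlap was 2 with a mean over probe sets (Cldn1 and Tjp1) and ran from 1 to 4 with 1 array left out, where fewer arrays make it easier to reach. The 4 without WT replicate 3 were Cldn3, Cldn8, Cldn12 and Tjp1. The 3 without EKO replicate 2 were Cldn1, Cldn8 and Tjp1. The share of all genes with no overlap was not computed for these settings, so the counts have no background to be read against. The median of the 9 genes ran from 0.015 to 0.18 with 1 array left out. Differences near 0 changed sign with 1 array left out. That of Cldn3 was -0.028 without EKO replicate 2, -0.14 without WT replicate 1 and -0.087 without WT replicate 2, in a range of -0.14 to 0.29. Ocln was at -0.028 without EKO replicate 3 and -0.011 without WT replicate 1, in a range of -0.028 to 0.13. Cldn4 was at 0.015 without WT replicate 3, in a range of -0.38 to 0.015. The signs of Cldn1, Cldn7, Cldn8, Cldn12, Tjp1 and Cgn held under all alternatives run. Cldn7 was not among the upper 50% of means and has no value there.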
